A study of Homo sapiens with 6 samples.

Results

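The desmosome components examined were 10 genes, chosen as a list of desmosomal cadherins and plaque proteins: DSG2, DSG3, DSC2, DSC3, JUP, PKP1, PKP2, PKP3, PKP4 and DSP. They are 10 of the 19775 genes that the arrays measured with probe sets tied to a single gene, and 24 of the 54675 probe sets. Total RNA of MDA-MB-231 cells, a widely used triple-negative breast carcinoma line grown in culture, was read on 6 Affymetrix arrays. In the SDC1 siRNA group, 3 cultures were transfected with a small interfering RNA against SDC1, which encodes the transmembrane heparan sulfate proteoglycan syndecan-1. In the control siRNA group, 3 cultures were transfected with a negative control siRNA. The series describes the replicates as independent. All cultures received an siRNA, and untransfected cells were not analysed here. The comparison asked which genes change when SDC1 is silenced.

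Desmosomes are cell-cell junctions that give epithelia and heart muscle mechanical strength. Their cadherins, the desmogleins and desmocollins, bind those of the neighbouring cell. Inside the cell the cadherin tails bind the armadillo proteins plakoglobin and the plakophilins, and these bind desmoplakin, which holds the intermediate filaments. Carcinoma cells of mesenchymal character often have fewer such junctions than epithelial cells.

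Each value is a log2 expression measure from which the probe set's own median across the 6 arrays has been taken, so a value of 0 is the middle of the 6 arrays and not an absent transcript. Levels cannot be read from them and genes cannot be ranked by level. Only a coarse brightness class could be recovered from the numeric precision of the values, as a log2 level between 2 and 4 (dimmest), between 4 and 8 (middle) or between 8 and 16 (brightest). A log2 fold change is the SDC1 siRNA mean minus the control siRNA mean, given with the standard error (SE) of a limma fit, n = 3 arrays per group, and p-values adjusted by Benjamini-Hochberg over all genes or all probe sets tested, with a threshold of 0.05. In these bulk cultures, fewer cells with a transcript and less transcript per cell cannot be told apart.

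SDC1 itself was at -1.14, -1.16 and -1.43 in the SDC1 siRNA arrays, against 1.13, 1.32 and 1.09 in the control siRNA arrays, which left 18.7% of the control transcript. Across all genes 5563 of 19775 (28.1%) passed the threshold, so a changed gene was common in this experiment. The share was 41.3% in the brightest class, 19.9% in the middle class and 4.97% in the dimmest. The class was read from the 3 higher arrays of each probe set, which for a gene that fell are the control siRNA arrays. When it was read from all 6, 19 of the 24 desmosome probe sets kept their class. Those that left the brightest class were JUP 201015_s_at, PKP1 205724_at, PKP2 207717_s_at, PKP4 214874_at and DSC2 231033_at. The labels name no batch, but poly-A spike-in controls parted the arrays into batches that each hold both groups, with SDC1 siRNA replicates 1 and 2 and control siRNA replicate 1 in batch 1 and the other arrays in batch 2. Changes inside each batch are given for the desmosome genes and for the called genes of the other lists, and for SDC1 they were -2.28 in batch 1 and -2.63 in batch 2. Inside a batch 1 of the groups has only 1 array, and so no spread of its own. All 4 markers listed for this cell line (VIM, CD44, EGFR and KRT18) were in the brightest class. Luminal and hormone receptor genes had 3 of 4 in the brightest class, ESR1 among them, and endothelial markers also had 3 of 4. Differentiated keratinocyte markers had 2 of 6, fibroblast markers 1 of 7 and leukocyte markers 0 of 4. The class therefore does not show whether a transcript is absent or which cell type is present.

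Among the 10 desmosome genes, JUP, DSG2 and DSC2 fell, PKP3 rose, and 6 did not pass the threshold. The 4 calls of 10 (40%) stand beside 28.1% of all genes, and the 3 falls beside 15.1% of all genes that were called lower. Of the 10, 7 were in the brightest class, with 3 called, where 41.3% of all genes were called. The other 3 were in the middle class, with 1 called, where 19.9% of all genes were called. JUP had the largest fall, to 65.4% of the control level, followed by DSG2 at 71.5% and DSC2 at 78.3%. PKP3 rose to 119% of control, 1 call of 10 beside 13% of all genes called higher. The median log2 fold change of the 10 genes was -0.18, against 0.00 over all genes. For 5 of the 10 genes, 4 lower and 1 higher, no SDC1 siRNA array reached the range of the control siRNA arrays, beside 41.8% of all genes (21.7% lower and 20% higher). At the level of probe sets, 10 of 24 were called lower and 2 higher (50%), beside 22.6% of all single-gene probe sets (12% lower and 10.6% higher). Of the 24, 11 were in the brightest class with 7 called, 10 in the middle with 5 called and 3 in the dimmest with 0 called. The share over all probe sets was not taken by class, so the 22.6% is not matched for brightness. The ranges were separate for 14 of the 24 probe sets, 12 lower and 2 higher, beside 39.1% of all single-gene probe sets (20% lower and 19.1% higher). PKP4 holds 5 of these 24 probe sets and 5 of the 12 calls, so the probe sets are not independent counts of genes.

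**Figure D1:**
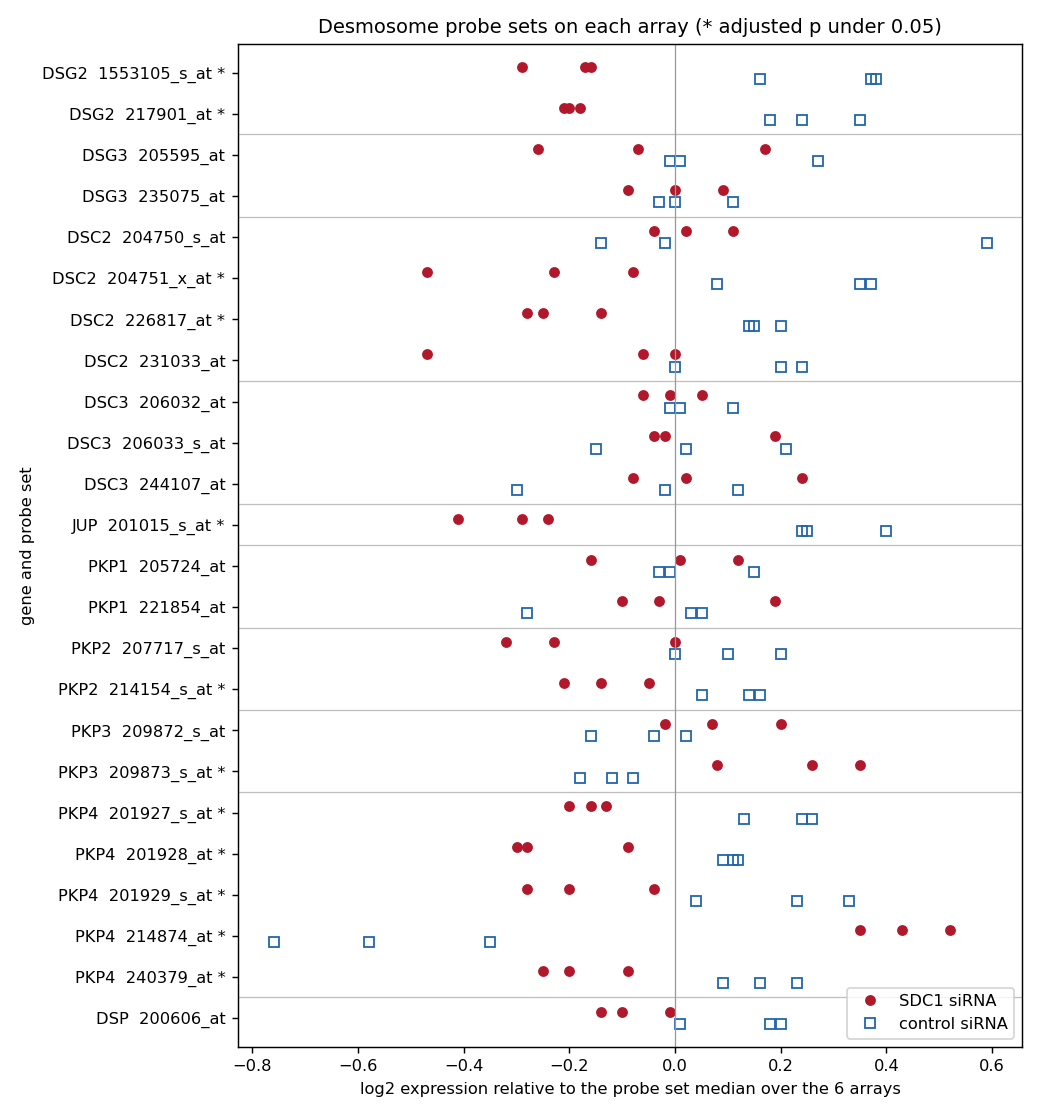
Log2 expression relative to the probe set median (x axis) for the 24 single-gene desmosome probe sets (rows, grouped by gene), with each SDC1 siRNA array as a filled circle and each control siRNA array as an open square. JUP, DSP, both DSG2 probe sets and 4 of the 5 PKP4 probe sets lie lower on all SDC1 siRNA arrays. So do PKP2 214154_s_at and DSC2 204751_x_at, 226817_at and 231033_at. PKP4 probe set 214874_at and PKP3 209873_s_at lie higher on all of them.

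The desmogleins are long-tailed desmosomal cadherins. DSG2 is the desmoglein of simple epithelia and heart, and DSG3 belongs to the basal layers of stratified epithelia, where it is the antigen of pemphigus vulgaris. The gene value of DSG2, the mean of its pair of probe sets, was -0.18, -0.18 and -0.25 in the SDC1 siRNA arrays, against 0.20, 0.28 and 0.37 in the control siRNA arrays. All SDC1 siRNA arrays lay below all control siRNA arrays, and the gap between the groups exceeded the spread within either. DSG2 averaged -0.20 ± 0.04 with SDC1 siRNA, against 0.28 ± 0.08 with control siRNA (SD, n = 3 arrays each). The log2 fold change was -0.48 (SE 0.065, limma adjusted p = 0.000698), with -0.38 in batch 1 and -0.57 in batch 2.

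Both DSG2 probe sets gave this fall, 1553105_s_at by -0.51 (SE 0.086, limma adjusted p = 0.00327) and 217901_at by -0.45 (SE 0.073, limma adjusted p = 0.00278). Their difference was -0.06 (SE 0.11), short of the threshold in the limma fit over pairs of probe sets (adjusted p = 0.793). DSG3 was at 0.17, -0.26 and -0.07 in the SDC1 siRNA arrays, against 0.27, -0.01 and 0.01 in the control siRNA arrays. The groups overlapped, and the log2 fold change of -0.14 (95% interval -0.41 to 0.13) did not pass the threshold (limma adjusted p = 0.441), with -0.31 in batch 1 and -0.07 in batch 2. The DSG3 value comes from a middle-class probe set, and its other probe set was in the dimmest class at -0.03.

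The desmocollins are the partner cadherins, DSC2 being the widely expressed one and DSC3 that of basal keratinocytes. The DSC2 gene value was -0.30, -0.12 and -0.17 in the SDC1 siRNA arrays, against 0.20, 0.07 and 0.19 in the control siRNA arrays. The groups did not overlap, and the log2 fold change was -0.35 (SE 0.071, limma adjusted p = 0.00603), with -0.41 in batch 1 and -0.30 in batch 2. Neither batch value passed the threshold on its own (limma adjusted p = 0.0801 and 0.17).

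The 4 DSC2 probe sets differed in how clearly they showed the fall. Probe set 226817_at was the tightest, at -0.14, -0.25 and -0.28 in the SDC1 siRNA arrays, against 0.20, 0.15 and 0.14 in the control siRNA arrays, a change of -0.38 (SE 0.072, limma adjusted p = 0.00595). The cross-hybridising 204751_x_at, left out of the gene value, gave -0.52 (SE 0.12, limma adjusted p = 0.0145), and its call was lost without control siRNA replicate 3 (-0.47, limma adjusted p = 0.053). Probe set 231033_at, which makes up the gene value together with 226817_at, gave -0.32 (limma adjusted p = 0.127). Its lowest array was SDC1 siRNA replicate 1 at -0.47. It was in the brightest class from the 3 higher arrays but in the dimmest from all 6. Its 6 arrays lay between -0.47 and 0.24, too close together for both classes to be right, so its level is not known. Probe set 204750_s_at gave -0.11 (limma adjusted p = 0.722) and was set apart by control siRNA replicate 2, at 0.59 where the other control siRNA arrays were at -0.02 and -0.14. Without that array its change was 0.11, with the sign turned. No pair of DSC2 probe sets differed past the threshold.

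DSC3 showed no separation of the groups. Its middle-class probe set was at -0.04, -0.02 and 0.19 in the SDC1 siRNA arrays, against 0.02, -0.15 and 0.21 in the control siRNA arrays. The log2 fold change was 0.02 (95% interval -0.21 to 0.25, limma adjusted p = 0.917), with -0.04 in batch 1 and 0.16 in batch 2, and the other DSC3 probe sets, both in the dimmest class, gave -0.05 and 0.13. The DSC2 change of -0.35 lies outside that interval, but its own 95% interval of -0.52 to -0.19 overlaps it. The difference between the 2 genes was not tested.

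The desmosomal cadherins lie side by side on chromosome 18, in the order DSC3, DSC2, DSC1, DSG1, DSG4, DSG3 and DSG2. The fall was seen at DSC2 and DSG2, which stand apart in this order with 4 measured genes between them that did not pass the threshold. DSC1, DSG1 and DSG4, the cadherins of differentiated skin and hair, were all in the dimmest class, at -0.12, 0.07 and -0.03. Beyond DSG2, its antisense RNA gene DSG2-AS1 was at -0.02 (limma adjusted p = 0.902) and TTR, the thyroid hormone carrier transthyretin, at 0.02 (limma adjusted p = 0.922). The 3 probe sets of DSG2-AS1 ranged from -0.33 to 0.11, and the groups overlapped in each.

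**Figure D2:**
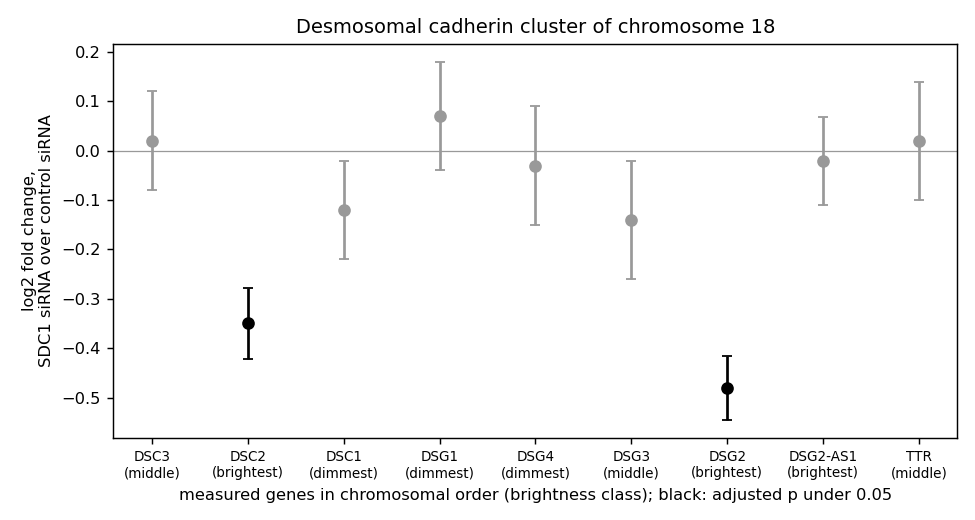
Log2 fold change, SDC1 siRNA over control siRNA (y axis, bars are the limma standard error), of the 9 measured genes of the chromosome 18 cadherin cluster and its edge, in chromosomal order (x axis, with the brightness class). DSC2 at -0.35 and DSG2 at -0.48 stand below the other genes, which lie between -0.14 and 0.07.

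JUP encodes plakoglobin, the armadillo protein that binds the desmosomal cadherin tails and also occurs in adherens junctions, where its close relative beta-catenin works. Its only single-gene probe set, 201015_s_at, was at -0.29, -0.24 and -0.41 in the SDC1 siRNA arrays, against 0.25, 0.40 and 0.24 in the control siRNA arrays. All SDC1 siRNA arrays lay below all control siRNA arrays, and the SD within each group was 0.09. The log2 fold change was -0.61 (SE 0.073, limma adjusted p = 0.000363), a 1.53-fold loss. It was -0.52 in batch 1, which has 1 control siRNA array, and -0.73 in batch 2, which has 1 SDC1 siRNA array. CTNNB1, which encodes beta-catenin, was at -0.02 (SE 0.093, limma adjusted p = 0.886).

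PKP1, PKP2 and PKP3 are plakophilins, which bind desmoplakin and cluster the cadherins, PKP1 mostly in stratified epithelia, PKP2 in simple epithelia and heart and PKP3 in nearly all epithelia. The PKP1 gene value was at -0.16, 0.01 and 0.12 in the SDC1 siRNA arrays, against -0.03, -0.01 and 0.15 in the control siRNA arrays, with a log2 fold change of -0.05 (95% interval -0.25 to 0.15, limma adjusted p = 0.743). It was at -0.04 in batch 1 and 0.05 in batch 2. Its other probe set gave 0.09, and the sign of the gene value depended on the probe sets and arrays used.

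PKP2 was lower by a small amount that sat at the threshold. Probe set 214154_s_at was at -0.05, -0.21 and -0.14 in the SDC1 siRNA arrays, against 0.05, 0.14 and 0.16 in the control siRNA arrays, with a change of -0.25 (SE 0.075, limma adjusted p = 0.0475). The gene value is that of 207717_s_at, in the brightest class from the 3 higher arrays but, like 214154_s_at, in the middle class from all 6. Its values were -0.23, -0.32 and 0.00 in the SDC1 siRNA arrays, against 0.20, 0.00 and 0.10 in the control siRNA arrays. The change was -0.28 (SE 0.10), with a gene-level adjusted p = 0.0611 in limma. In 207717_s_at, SDC1 siRNA replicate 3 lay level with control siRNA replicate 2, and the change was -0.47 in batch 1 and -0.04 in batch 2. The gene value passed the threshold with all probe sets averaged (-0.26, limma adjusted p = 0.0167), while the call of 214154_s_at was lost when any 1 of the 6 arrays was left out.

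PKP3 was the member called higher. Its gene value was 0.12, 0.27 and 0.07 in the SDC1 siRNA arrays, against -0.06, -0.05 and -0.17 in the control siRNA arrays. The groups did not overlap, with a log2 fold change of 0.25 (SE 0.073, limma adjusted p = 0.0317). Probe set 209873_s_at gave 0.36 (SE 0.086, limma adjusted p = 0.0193), and 209872_s_at gave 0.14 (limma adjusted p = 0.307) with overlapping groups. The call of 209873_s_at was lost without SDC1 siRNA replicate 1 or 2 or control siRNA replicate 2 or 3 (limma adjusted p from 0.0505 to 0.0734). The gene-level call was lost without SDC1 siRNA replicate 1 or 2 or without any 1 control siRNA array (limma adjusted p from 0.0548 to 0.109). It was also lost when batch entered the model as a block (0.22, limma adjusted p = 0.0658). The change was 0.26 in batch 1 and 0.19 in batch 2, where groups that do not overlap could give no other sign.

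**Figure D3:**
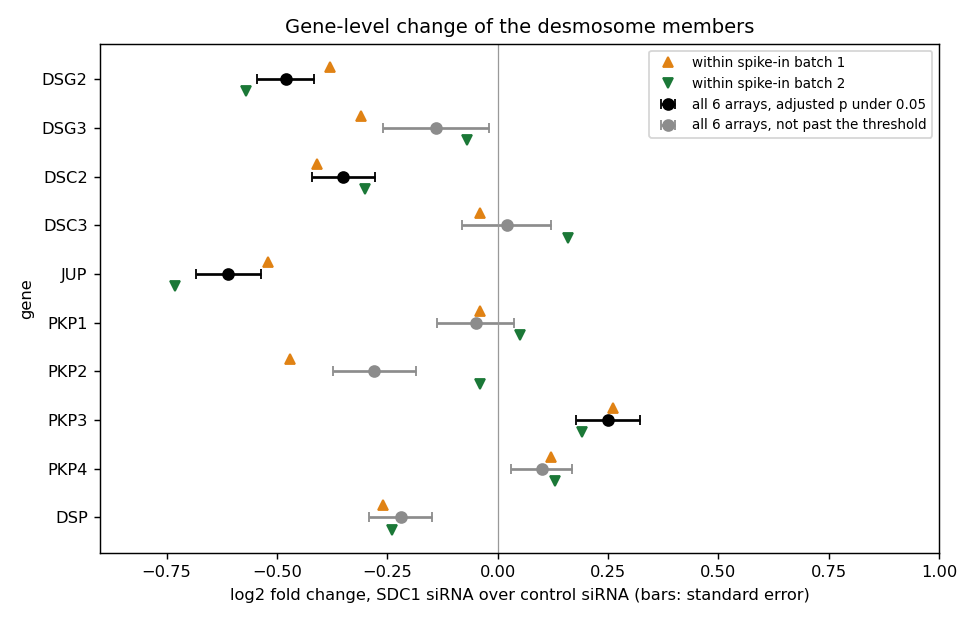
Log2 fold change, SDC1 siRNA over control siRNA (x axis), of the gene value of each desmosome member (rows), as circles with limma standard errors for all 6 arrays and as triangles within each spike-in batch. JUP, DSG2 and DSC2 are below 0 in both batches and PKP3 above 0 in both. The groups do not overlap for these genes, so their sign within a batch was fixed. PKP2, whose groups overlap, is at -0.47 in batch 1 and -0.04 in batch 2.

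PKP4, also called p0071, is a more distant plakophilin relative found at desmosomes and adherens junctions, and its probe sets moved in opposite directions. Probe set 214874_at was at 0.43, 0.52 and 0.35 in the SDC1 siRNA arrays, against -0.58, -0.76 and -0.35 in the control siRNA arrays. It rose by 1.00 on the log2 scale (SE 0.11, limma adjusted p = 0.000351), a 1.99-fold gain and the largest change of any desmosome probe set. The change was 1.05 in batch 1 and 0.91 in batch 2.

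The other 4 PKP4 probe sets fell, by amounts between -0.33 and -0.38. Probe set 201927_s_at was at -0.13, -0.16 and -0.20 in the SDC1 siRNA arrays, against 0.13, 0.24 and 0.26 in the control siRNA arrays, a change of -0.37 (SE 0.072, limma adjusted p = 0.00682). Probe set 201928_at changed by -0.33 (limma adjusted p = 0.0184), 201929_s_at by -0.38 (limma adjusted p = 0.0281) and 240379_at by -0.34 (limma adjusted p = 0.0149). None of these 4 had overlapping groups. The call of 201927_s_at held without any 1 array. That of 201928_at was lost without SDC1 siRNA replicate 1 or 2 or control siRNA replicate 2 (limma adjusted p from 0.052 to 0.0735), and that of 201929_s_at without those or control siRNA replicate 3 (from 0.0776 to 0.101). That of 240379_at was lost without SDC1 siRNA replicate 1 or 3 (limma adjusted p = 0.0558 and 0.0509).

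The opposite movement was tested on the within-array difference between probe sets. Each of the 4 pairs that include 214874_at differed in its response by between 1.33 and 1.37 on the log2 scale (limma adjusted p from 0.00019 to 0.000471). Of the 6 pairs among the other PKP4 probe sets 0 passed the threshold in limma, with 0 at an unadjusted p under 0.05. Likewise 0 of the 14 pairs within the other members passed, with 0 at an unadjusted p under 0.05. Over all genes 14.4% of pairs passed, and 227 of 10523 genes with 2 or more probe sets (2.16%) had probe sets called in opposite directions.

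The PKP4 gene value averaged 214874_at with 201928_at and 201929_s_at, which were all in the brightest class, and was at 0.10 (SE 0.069, limma adjusted p = 0.359), with 0.12 in batch 1 and 0.13 in batch 2. With the brightness class taken from all 6 arrays, 214874_at fell into the middle class, and the gene value became -0.35 (limma adjusted p = 0.00755). A single PKP4 value therefore says little, and PKP4 is described here by its probe sets. The reference places PKP4-AS1, an antisense RNA gene, over the end of PKP4, and its probe set was at 0.06 (limma adjusted p = 0.698). This gene was chosen after its value was seen. Which PKP4 transcripts each probe set detects is not given in the sources used here.

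**Figure D4:**
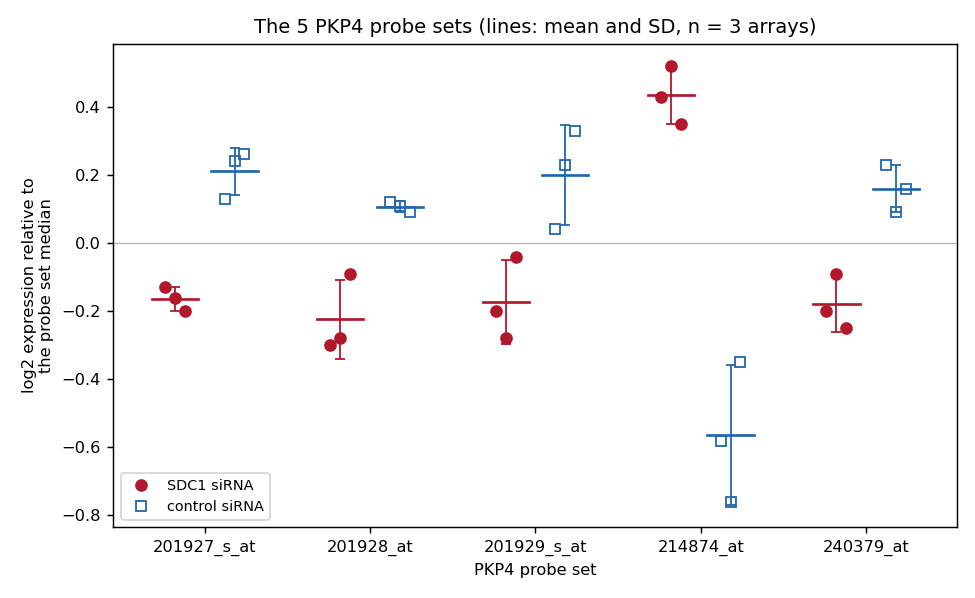
Log2 expression relative to the probe set median (y axis) for the 5 PKP4 probe sets (x axis), with SDC1 siRNA arrays as filled circles left of control siRNA arrays as open squares, and the mean and SD of 3 arrays as lines. Probe set 214874_at is between 0.35 and 0.52 after SDC1 siRNA and between -0.76 and -0.35 after control siRNA, and the other 4 show the opposite order.

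DSP encodes desmoplakin, the plakin that anchors intermediate filaments to the plaque. Its probe set was at -0.01, -0.10 and -0.14 in the SDC1 siRNA arrays, against 0.20, 0.01 and 0.18 in the control siRNA arrays. The groups did not overlap, though SDC1 siRNA replicate 1 and control siRNA replicate 2 were close. The log2 fold change was -0.22 (SE 0.072), just short of the threshold (limma adjusted p = 0.0551). It was at -0.26 in batch 1 and -0.24 in batch 2. Of all the alternatives run, it passed under 5 only (limma adjusted p from 0.0282 to 0.0493). These were averaging all single-gene probe sets (-0.22), leaving out the dimmest class (-0.22), quantile normalization (-0.22), the batch as a block (-0.25) and leaving out control siRNA replicate 2 (-0.28). The averaging and the class filter left the values of DSP as they were, since its only probe set is in the brightest class. They changed only the other genes in the fit.

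Promoter sequence is shown for the 3 genes called lower. The transcription repressors of the SNAI and ZEB families, some of which were measured here, bind the E-box CACCTG or, on the other strand, CAGGTG. The windows are the 250 bases before a RefSeq transcription start in GRCh38.p14, printed 5′ to 3′ on the strand of the gene, with E-boxes in capitals. Where a gene has 2 starts, the window that holds an E-box was printed. For JUP this is the downstream start (chr17:41785977-41786226, minus strand), for DSG2 chr18:31497927-31498176 on the plus strand, and for DSC2 the upstream start (chr18:31102422-31102671, minus strand).
JUP: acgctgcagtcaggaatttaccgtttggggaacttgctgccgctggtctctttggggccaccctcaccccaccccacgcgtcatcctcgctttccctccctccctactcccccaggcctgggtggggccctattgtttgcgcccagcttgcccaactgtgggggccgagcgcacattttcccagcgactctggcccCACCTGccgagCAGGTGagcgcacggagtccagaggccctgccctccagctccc
DSG2: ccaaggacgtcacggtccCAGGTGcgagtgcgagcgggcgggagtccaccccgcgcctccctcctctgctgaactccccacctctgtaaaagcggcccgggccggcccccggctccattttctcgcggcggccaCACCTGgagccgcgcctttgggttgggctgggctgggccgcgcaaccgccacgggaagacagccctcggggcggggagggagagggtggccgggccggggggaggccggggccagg
DSC2: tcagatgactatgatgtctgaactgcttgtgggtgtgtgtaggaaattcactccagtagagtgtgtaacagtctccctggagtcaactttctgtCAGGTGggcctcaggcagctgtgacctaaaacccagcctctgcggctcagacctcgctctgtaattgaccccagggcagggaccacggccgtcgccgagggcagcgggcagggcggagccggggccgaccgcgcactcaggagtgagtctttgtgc

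The JUP window held 2 E-boxes, beginning 54 and 43 bases before the start, the DSG2 window 2, and the DSC2 window 1. The upstream JUP start and the downstream DSC2 start had none. Of 11 windows found for 8 members, 4 held an E-box, those of DSC2, DSG2, DSP and JUP, against 17.5% of 35116 windows of all genes. The GRHL motif AACCGGTT, a palindrome, was in 0 of the 11 and in 0.117% of all windows. The printed JUP, DSG2 and DSC2 windows were 66%, 75.2% and 59.6% G or C, against a median of 58% over all windows. A match of letters is not a bound site, and whether SNAI or ZEB repressors act on these genes was not tested. PKP2 and PKP3 had no entry.

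Of the regulators, 4 of 20 measured were lower and 1 higher, beside 15.1% of all genes lower and 13% higher, with a list median of -0.01. Of the 20, 12 were in the brightest class, where 41.3% of all genes were called. SNAI2, the repressor also called Slug, was at 0.12, 0.10 and 0.27 in the SDC1 siRNA arrays, against -0.10, -0.20 and -0.10 in the control siRNA arrays, a rise of 0.30 (SE 0.069, limma adjusted p = 0.0118), with 0.21 in batch 1 and 0.42 in batch 2. SNAI1 was at -0.02, ZEB1 at -0.11 and ZEB2 at 0.26, none past the threshold over all arrays. ZEB2 differed between batches, with 0.14 in batch 1 and 0.64 in batch 2. SDC1 siRNA replicate 3, the only SDC1 siRNA array of batch 2, was at 0.62 where the other SDC1 siRNA arrays were at -0.07 and 0.07. Of the epithelial factors GRHL1, GRHL2, GRHL3, OVOL1 and OVOL2 none passed either. ADAM17 and ADAM10, sheddases that can cleave DSG2, fell by 0.69 (SE 0.061, limma adjusted p = 7.97e-05) and 0.33 (limma adjusted p = 0.0195). In batches 1 and 2 ADAM17 was at -0.62 and -0.75, and ADAM10 at -0.25 and -0.33. EGFR, whose signalling promotes desmosome disassembly, fell by 0.41, with -0.39 in batch 1 and -0.48 in batch 2, and its 9 probe sets ranged from -0.81 to -0.09. ATP2C1, the Golgi calcium pump mutated in Hailey-Hailey disease, fell by 0.38, with -0.53 in batch 1, -0.21 in batch 2 and probe sets from -0.87 to 0.10, and its call was lost with the class from all 6 arrays (-0.23, limma adjusted p = 0.0624).

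The other desmosome and cornified junction genes had 2 of 8 higher and 0 lower, beside 13% and 15.1% of all genes, with a median of 0.03 and 2 at an unadjusted p under 0.05, the genes called. PPL, the plakin periplakin, was at 0.45, 0.52 and 0.03 in the SDC1 siRNA arrays, against -0.03, -0.23 and -0.27 in the control siRNA arrays, and rose by 0.51 (SE 0.13, limma adjusted p = 0.0165), with 0.52 in batch 1 and 0.28 in batch 2. SDC1 siRNA replicate 3 was close to control siRNA replicate 1, and the PPL call was lost without SDC1 siRNA replicate 1 or 2 or control siRNA replicate 2 or 3 (limma adjusted p from 0.0516 to 0.0587). KAZN, the periplakin-binding protein kazrin, rose by 0.32 (SE 0.07, limma adjusted p = 0.00846), with 0.22 in batch 1 and 0.36 in batch 2. PERP, a desmosomal membrane protein and p53 target, was at 0.01 (SE 0.065), and the plakin EVPL at 0.05.

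Intermediate filament genes, the cytoskeletal side of the junction, had 3 of 12 measured members higher and 1 lower, beside 13% and 15.1% of all genes, with a median of -0.06. VIM, the filament protein of mesenchymal cells, fell by 0.62 (SE 0.055, limma adjusted p = 8.08e-05), with -0.61 in batch 1 and -0.62 in batch 2. The 2 VIM probe sets were at -0.62 and -0.27. KRT80 rose by 1.05 (SE 0.098, limma adjusted p = 0.000105), at 0.53, 0.63 and 0.38 in the SDC1 siRNA arrays, against -0.38, -0.52 and -0.71 in the control siRNA arrays. The KRT80 change was 0.96 in batch 1 and 0.99 in batch 2. KRT19, a keratin of simple epithelia, was at 0.39 (limma adjusted p = 0.0445) with overlapping groups, and at 0.42 in batch 1 and 0.15 in batch 2. The muscle filament DES was at 0.25 (limma adjusted p = 0.037), with 0.19 in batch 1 and 0.21 in batch 2. The KRT19 call was lost without any 1 array other than SDC1 siRNA replicate 3, and the DES call without any 1 array other than SDC1 siRNA replicate 3 or control siRNA replicate 1. The simple-epithelial keratins KRT8 and KRT18 were at -0.07 and -0.21 and did not pass.

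Hemidesmosomes, which tie the same filaments to the basement membrane, had 3 of 6 measured genes higher and 0 lower, beside 13% and 15.1% of all genes, with a median of 0.21. All 6 were in the brightest class, where 41.3% of all genes were called. PLEC, the plakin plectin, rose by 0.38 (SE 0.083, limma adjusted p = 0.00904), DST, which encodes the plakin dystonin, by 0.35 (SE 0.064, limma adjusted p = 0.00356) and the tetraspanin CD151 by 0.29 (limma adjusted p = 0.0414). In batches 1 and 2 PLEC was at 0.52 and 0.22, DST at 0.33 and 0.35, and CD151 at 0.28 and 0.23. The 10 DST probe sets ranged from -0.36 to 0.35, and with all of them averaged DST was at 0.09 (limma adjusted p = 0.37). The CD151 call was lost with the batch as a block (0.25, limma adjusted p = 0.0882) and without SDC1 siRNA replicate 1 or 2 or control siRNA replicate 1 or 3. ITGB4 and ITGA6, the integrin chains of the hemidesmosome, were at -0.21 and -0.07 (limma adjusted p = 0.347 and 0.528). ITGB4 was at 0.03 in batch 1 and at -0.61 in batch 2. Its lowest array was SDC1 siRNA replicate 3 at -0.56, the only SDC1 siRNA array of batch 2.

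In the adherens junction list 1 of 8 measured genes was higher and 1 lower, beside 13% and 15.1% of all genes, with a median of -0.02. CDH1, the epithelial cadherin, fell by 0.55 (SE 0.11, limma adjusted p = 0.00675), with -0.45 in batch 1 and -0.79 in batch 2. The 2 CDH1 probe sets were at -0.55 and -0.17. CDH11, a mesenchymal cadherin, rose by 0.45 (SE 0.10, limma adjusted p = 0.0108), with 0.65 in batch 1 and 0.18 in batch 2. ARVCF and CTNND2, p120-catenin relatives as PKP4 is, were at -0.02 and -0.01.

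Of the 4 markers of the cell line itself 3 fell, VIM, EGFR and CD44, with a median of -0.52. All 4 were in the brightest class, where 41.3% of all genes were called. The counts of this and the other marker lists stand beside 15.1% of all genes called lower and 13% called higher. CD44, the hyaluronan receptor, fell by 0.68 (SE 0.081, limma adjusted p = 0.000389), with -0.77 in batch 1, -0.51 in batch 2 and probe sets from -1.76 to 0.07. EPCAM, an epithelial adhesion molecule, was the 1 of 4 luminal and hormone receptor genes called, and fell by 0.34 (SE 0.088, limma adjusted p = 0.0195), with -0.54 in batch 1 and -0.19 in batch 2. Its call was lost without SDC1 siRNA replicate 1 or 2 or control siRNA replicate 1 (limma adjusted p from 0.0516 to 0.0701). COL1A1 of the fibroblast list fell by 0.77 (1 of 7 measured), with -0.95 in batch 1, -0.59 in batch 2 and probe sets from -1.23 to 0.18. FLG of the differentiated keratinocyte list rose by 0.69 (1 of 6), with 0.51 in batch 1 and 0.92 in batch 2. In limma 0 of 4 measured leukocyte and 0 of 4 endothelial markers passed, with 1 and 0 at an unadjusted p under 0.05. The part of these markers in the desmosome values was not tested.

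**Figure D5:**
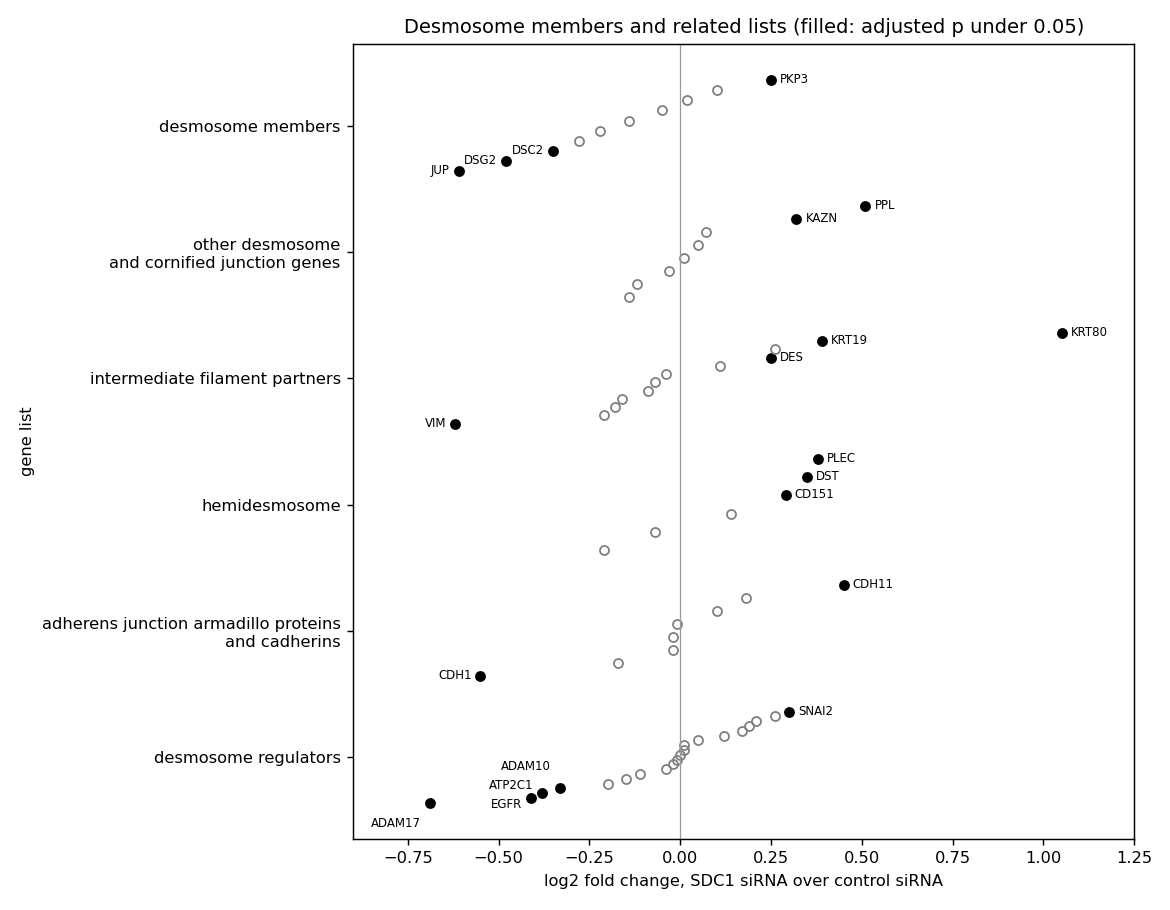
Log2 fold change, SDC1 siRNA over control siRNA (x axis), of the desmosome members and of the genes of 5 related lists (rows), each point a gene and filled where the limma adjusted p is under 0.05. The 3 desmosome genes called lower lie between -0.61 and -0.35, and the called hemidesmosome genes lie between 0.29 and 0.38.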

How the data were processed

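The authors deposited log2 expression for 54675 probe sets of each array; RMA (robust multi-array average) is named, with no version, per the submitters' processing notes. The median of every probe set over the arrays lay within 1e-06 of 0, a centring read from the values. The log base was taken as 2, as RMA gives it. Gene names came from the annotation of the array platform, which gave 41097 probe sets 1 gene, and symbols were updated through RefSeq gene identifiers (41043 matched). A gene value was the mean of the single-gene probe sets in the gene's brightest class, judged by the numeric precision of the 3 higher arrays; _x_at probe sets entered only genes without others. The class differed in 13.8% of probe sets when read from all 6 arrays.

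The groups were compared in R 4.3.3 by limma 3.58.1 (functions lmFit and eBayes; 2-sided; no covariates) over 19775 genes, over 54613 probe sets without the 62 controls, and over 42435 within-array differences between probe sets of 1 gene. The fit was tested on simulated data. With 3 arrays a group, the number of arrays limits precision. The batches come from 24 poly-A spike-in probe sets, whose mean differed between the groups by 0.295 (exact permutation p = 0.7, where 0.1 is the smallest possible). Named genes are all members and up to 4 genes of each list by lowest p, and the genes in or next to the cadherin cluster; others were named after their values were seen. KRT6A, KRT6B, KRT17, KRT81, COL17A1, LAMA3, CTNND1 and TP63 were not analysed here. The members and lists were chosen with earlier results of these data known. Alternatives were other probe set choices, a filter on the dimmest class, quantile normalization, a robust variance prior, the batch or replicate number as a block, fits within a batch and leaving out each array. Promoter sequences are RefSeq's for GRCh38.p14.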

Additional observations from a re-analysis of the deposited data

How the results depend on the processing

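The count of desmosome genes called was 4, and it ranged from 3 to 5 when 1 array was left out and from 4 to 6 under the other settings that kept all arrays. Within spike-in batch 1 it was 2 (JUP and PKP2) and within batch 2 it was 2 (JUP and DSG2), where each fit holds 3 arrays. All genes called numbered 5563, with 2685 and 1866 within the batches and 4490 to 5059 with 1 array left out. Probe sets called numbered 12, with 1 and 0 within the batches (12 and 9 at an unadjusted p under 0.05 in limma), and 7 to 11 with 1 array left out, the lowest without SDC1 siRNA replicate 1. The count of differing pairs of probe sets was 4, and 3 to 5 under every alternative run. SDC1 stayed between -2.47 and -2.33 with 1 array left out. JUP, DSG2 and DSC2 kept their sign under every alternative run and their call in every fit over 5 or 6 arrays. Their groups did not overlap, so with the same gene value the sign could not turn within a batch or with an array left out.

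The sign turned for values near 0. PKP1, at gene level, was at 0.02 both when all its probe sets were averaged and when the class came from 6 arrays, at 0.00 with the batch as a block, at 0.05 within batch 2, and between -0.11 and 0.03 with 1 array left out; its probe set 205724_at gave the same 0.00, 0.05 and range, and 221854_at ranged from -0.02 to 0.15. PKP4 was at -0.09 when its probe sets were all averaged and -0.35 when the class came from 6 arrays, an alternative chosen after seeing the data. DSC3, and its probe set 206033_s_at, were at -0.04 within batch 1 and between -0.07 and 0.11 with 1 array left out. DSG3 probe set 235075_at was at 0.04 within batch 1 and between -0.07 and 0.02, and DSC2 probe set 204750_s_at at 0.08 and between -0.26 and 0.11. DSC1 was at 0.09 within batch 1. The cause was not tested. Same-numbered replicates of the groups correlated in their deviations by 0.01, 0.08 and 0.10, so the numbers were not taken as pairs; with the replicate block 5 desmosome genes, 11 desmosome probe sets and 5 pairs of probe sets were called, and 5452 genes in all.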
